A study of Mus musculus with 73 samples.

Results

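The *Tbx3* promoter library is 1 of 8 reporter libraries of a three-way massively parallel reporter assay (MPRA), in which a promoter is combined with 2 inserted DNA fragments. Its members were all combinations whose library name gives the *Tbx3* promoter, which are 14401 of the 110180 combinations measured in the series. Of these, 340 are control-control (CC), 5173 are enhancer-control (EC) and 8888 are enhancer-enhancer (EE) combinations. The library was transfected transiently into E14tg2a cells, a line of mouse embryonic stem cells (mESCs), grown in 2i+LIF, with 20000000 cells per replicate, and the cells were collected after 24 hours. There were 3 biological replicates, BR1 to BR3, transfected on different days. The cDNA of each was sequenced in 2 runs, so that 6 of the 73 samples of the series are cDNA of this library. Its plasmid DNA, also sequenced in 2 runs but without replicates, was the common denominator of BR1 to BR3. Another sample linked its barcodes to the fragments. All combinations share the line, the vector and the promoter, and reporters were episomal plasmids. Only reporter barcodes were counted, so that no endogenous transcript is available to check the identity of the cells.

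Genes of cell identity commonly have more than 1 enhancer, a DNA element to which transcription factors bind and through which a promoter is made more active. *Tbx3* encodes a T-box transcription factor of the network that maintains naive mESCs. The tested enhancers lie near genes of the same network, namely *Pou5f1*, *Sox2*, *Nanog* and *Klf2*, which encode transcription factors of pluripotency, *Nodal* and *Lefty1*, which encode a signalling ligand and its inhibitor, and *Otx2* and *Fgf5*, which rise when cells leave the naive state.

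The window selected for the *Tbx3* promoter is 450 bp long and lies at chr5:119670652-119671101 (mm10). There it overlaps *Tbx3* and the antisense gene *Tbx3os1* in the RefSeq annotation. Per the study's methods, primers were placed in the ends of each window, so that the cloned PCR products were shorter. Coordinates and distances given here are those of the windows. The *Tbx3* gene spans chr5:119670534-119684724. Of the 7 enhancers of the *Tbx3* locus, Tbx3_E203 (chr5:119656667-119657116), Tbx3_E204 (chr5:119657334-119657783), Tbx3_E205 (chr5:119658334-119658783) and Tbx3_E206 (chr5:119660530-119660979) lie upstream within *Tbx3os1*. Tbx3_E207 (chr5:119679921-119680370), Tbx3_E208 (chr5:119681134-119681583) and Tbx3_E209 (chr5:119681796-119682245) lie inside the *Tbx3* gene. Between 8819 bp (Tbx3_E207) and 13535 bp (Tbx3_E203) separate them from the promoter fragment in the genome, and the annotation table used does not tell exons from introns. The PCR primers below, written 5′ to 3′ in lower case with no base singled out, define the ends of the promoter, of Tbx3_E203, whose pairs had the highest median deviation from additivity over all replicates, of Pou5f1_E081 (chr17:35503887-35504336) and Klf2_E058 (chr8:72316077-72316526), the strongest single enhancers, and of Otx2_E110 (chr14:48654527-48654976), the weakest.
Tbx3 promoter, forward: tgaggcctttcagacgtagg
Tbx3 promoter, reverse: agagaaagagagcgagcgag
Tbx3_E203, forward: ggatggctcaagaaggaagagttctatc
Tbx3_E203, reverse: aatgggtcactgggtcggtg
Pou5f1_E081, forward: attgaatacagacaggactgctggg
Pou5f1_E081, reverse: atgaatcttccgtttcctccactctg
Klf2_E058, forward: cagggccataggttcagacaaag
Klf2_E058, reverse: aaggatgtttcaaactaagcctgacag
Otx2_E110, forward: gtcaaggaccaatcgttaagcactttc
Otx2_E110, reverse: agaagcaagttctgggatggagg

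A single enhancer raised the output of the *Tbx3* promoter about 3-fold in the median combination, and a pair of enhancers raised it about 8-fold. The activity of a combination is the ratio of its barcodes in cDNA over plasmid DNA, and its boost index is the log2 of this activity over the baseline, the median of the CC combinations of the same replicate. The median activity of CC combinations was 0.0989 in BR1, 0.110 in BR2 and 0.148 in BR3. That of EC combinations was 0.310, 0.325 and 0.372, and that of EE combinations was 0.997, 0.948 and 0.963. The 3 types did not overlap in their medians in any replicate. The median boost index of EC combinations was 1.65, 1.57 and 1.33 in BR1 to BR3 (1.52 ± 0.16, SD, n = 3), or 2.86-fold over the baseline. The median of EE combinations was 3.33, 3.11 and 2.70 (3.05 ± 0.32, SD, n = 3), or 8.27-fold. EC combinations exceeded CC combinations by 1.51 ± 0.16 and EE exceeded EC combinations by 1.53 ± 0.16, in 3 of 3 replicates each (exact two-sided sign-flip permutation test, p = 0.25, the smallest that 3 replicates allow). The fragments were in opposite orientation in 0 CC combinations, in 49.4% of EC and in 49.8% of EE combinations. Without the combinations of opposite orientation, both differences held, at 1.50 ± 0.18 and 1.55 ± 0.15.

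**Figure D1:**
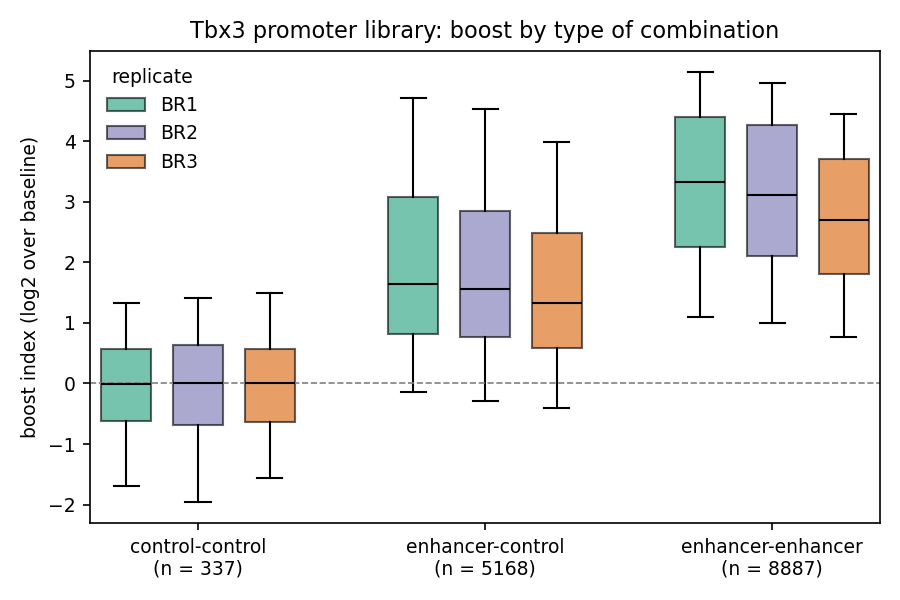
Boost index (log2 of activity over the baseline) of control-control, enhancer-control and enhancer-enhancer combinations with the Tbx3 promoter, per replicate. Boxes span the 25th to 75th percentile with the median as a line, whiskers reach the 5th and 95th percentile, and the medians lie at 0 for control-control, between 1.33 and 1.65 for enhancer-control and between 2.70 and 3.33 for enhancer-enhancer combinations.

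BR3 stood apart by its baseline. Its log2 baseline was -2.76, against -3.34 in BR1 and -3.19 in BR2, while the 99th percentile of log2 activity was close in all replicates, at 2.11, 2.06 and 2.03. BR3 had the lowest boost index of 48 of 57 enhancers, and the part of the baseline in this was not tested. Across combinations, Pearson's R between replicates ranged from 0.343 to 0.456 for CC, from 0.882 to 0.941 for EC and from 0.914 to 0.965 for EE combinations. The number of barcodes per combination is not in the table, which leaves the depth of each value unknown.

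Most combinations with an enhancer passed the test on their own. With limma's moderated test over the combinations of all 8 libraries and Benjamini-Hochberg adjustment (adjusted p under 0.05), 8720 EE combinations (98.1%) were above the baseline and 2 were below. Of the EC combinations, 4169 (80.7%) were above and 76 (1.47%) below. The background over all libraries was 83.5% above and 1.91% below. CC combinations, which define the baseline, passed in both directions, 66 above (19.6%) and 59 below (17.5%). The replicates share the barcodes of a combination and the plasmid DNA counts of the library. Error from these repeats in BR1 to BR3, and the test over replicates does not measure it.

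Almost all single enhancers activated the promoter. Of the 57 enhancers with EC combinations, 56 (98.2%) were above the baseline and 0 were below (limma, adjusted p under 0.05, and 0 below also at an unadjusted p under 0.05 and in the rank-sum test of the study's methods). In all libraries, 87.4% of tested enhancers were above and 2.44% below. Each enhancer's boost index is the median over its EC combinations, of which there were 5 to 160 with a median of 79. Of the 57 enhancers, 21 had a boost index under 1, 26 between 1 and 3, and 10 over 3, with a median of 1.41.

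Pou5f1_E081, near the gene of the pluripotency factor Oct4, was the strongest, at 4.98 in BR1, 4.78 in BR2 and 4.22 in BR3 (mean 4.66, 25.2-fold, limma adjusted p = 0.00013). Klf2_E058 followed at 4.63, 4.48 and 3.90 (mean 4.34). Sox2_E180 was at 4.43, 4.37 and 3.60 (mean 4.13). These enhancers were lowest in BR3 and lay above the EC median of 1.52 in every replicate. Nodal_E159 (mean 4.12 ± 0.43, SD, n = 3) and Nanog_E073 (4.09 ± 0.41) completed the 5 highest. The gap from each of these to the next was within their SDs, which include the shift of BR3 that most enhancers shared. Within each replicate, however, Pou5f1_E081 was above Klf2_E058, and Klf2_E058 was above Sox2_E180. Over the whole order, 1 of 56 gaps between neighbours was larger than both SDs, that of 0.48 between Sox2_E183 (2.77) and Sox2_E179 (2.29). This count does not use the pairing of values by replicate, so it does not tell which neighbours differ within replicates.

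The weakest enhancers lay close to the controls. Otx2_E110 was at 0.32, -0.05 and 0.28 (mean 0.18, limma adjusted p = 0.144) and was the 1 enhancer not called. Nodal_E157 had a mean of 0.20 ± 0.04 (SD, n = 3) and Lefty1_E087 of 0.23 ± 0.12. Nodal_E162 had 0.35 ± 0.04 and Pou5f1_E079 0.37 ± 0.11. The call of Lefty1_E087 and that of Nodal_E157 were lost without any 1 replicate (boost index from 0.16 to 0.27 and from 0.18 to 0.22), and the rank-sum test called all enhancers but Lefty1_E087. Otx2_E110 was called without BR2, at 0.30.

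**Figure D2:**
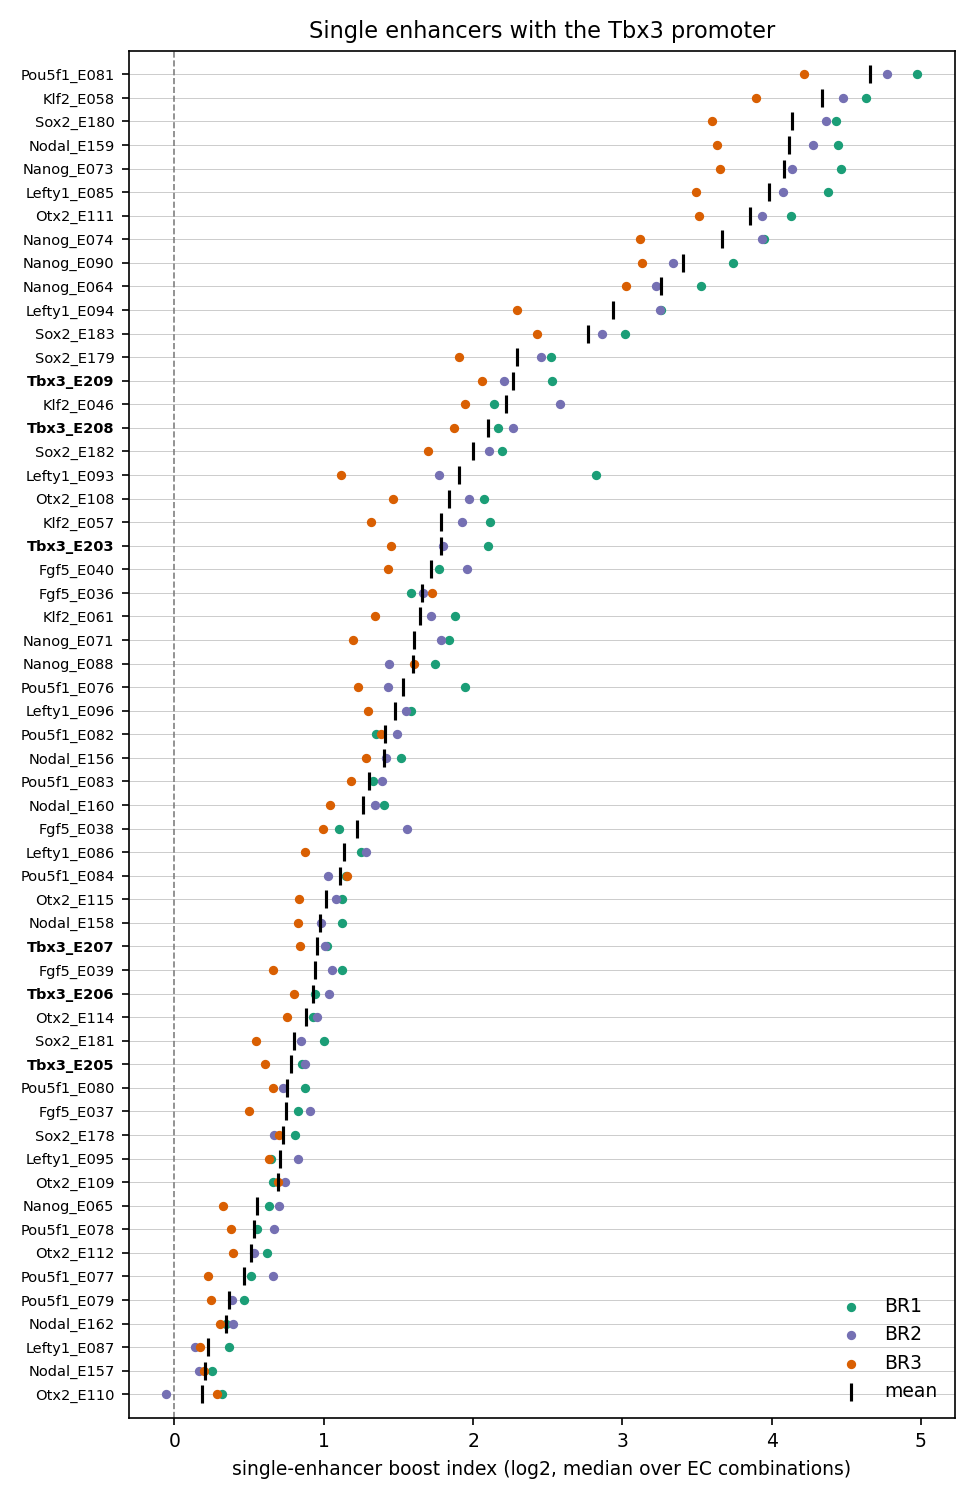
Boost index (log2) of each of the 57 enhancers over its enhancer-control combinations with the Tbx3 promoter, ordered by the mean (black bars), with a point per replicate and the Tbx3 locus in bold. Values run from 0.18 (Otx2_E110) to 4.66 (Pou5f1_E081), and BR3 is the lowest point of 48 enhancers.

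The spread of enhancers within a locus differed, from 0.74 to 1.72 for *Fgf5* and from 0.37 to 4.66 for *Pou5f1*. The *Nanog* locus had the highest median (3.26 over 7 enhancers), and 4 of its enhancers were over 3. *Sox2* (2.15 over 6), *Klf2* (2.00 over 4) and *Lefty1* (1.48 over 7) followed. *Fgf5* (1.22 over 5), *Nodal* (1.12 over 6), *Pou5f1* (1.11 over 9) and *Otx2* (0.88 over 7) were lower, although *Pou5f1* held the strongest enhancer of all.

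The promoter's own locus was in the middle of this order, with a median of 1.37 over 6 enhancers, of which 0 were over 3. Tbx3_E209 was the highest, at 2.53 in BR1, 2.21 in BR2 and 2.06 in BR3 (mean 2.27, 4.81-fold). Tbx3_E208, its neighbour inside the gene, was at 2.17, 2.27 and 1.87 (mean 2.10). Tbx3_E203, the farthest upstream, was at 2.10, 1.80 and 1.45 (mean 1.78). The ranges of these enhancers over the replicates overlapped, but within each replicate Tbx3_E203 was below both Tbx3_E209 and Tbx3_E208. Tbx3_E209 was above Tbx3_E208 in BR1 and BR3 and below it in BR2. Tbx3_E207 (0.96 ± 0.10, SD, n = 3), Tbx3_E206 (0.93 ± 0.12) and Tbx3_E205 (0.78 ± 0.15) lay below all of these in every replicate. All 6 were above the controls (limma, adjusted p from 0.00021 to 0.0011), and Tbx3_E204 occurred in 0 combinations.

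With all replicates, the test called a difference between the positions for a share of enhancers close to that of all libraries, in both directions. Both positions lie downstream of the barcoded reporter. Over all EC combinations the median boost index was 1.68, 1.58 and 1.38 in position 1 and 1.62, 1.56 and 1.29 in position 2. Of 56 enhancers tested, 11 were higher and 15 lower in position 2 (46.4%, against 40.0% over all libraries), with a median size of the difference of 0.19. Nodal_E160 had the largest, 1.94 in position 1 and 0.84 in position 2 (differences of -1.22, -1.05 and -1.02, limma adjusted p = 0.0093). Fgf5_E038 rose from 0.61 to 1.30 (adjusted p = 0.021) and Klf2_E061 fell from 1.98 to 1.30 (adjusted p = 0.0096). These values pool both orientations, which were not balanced between the positions. In position 2, Nodal_E160 had 0.627 in plus and 1.245 in minus orientation (limma adjusted p = 0.030), both below its value in position 1. For Nodal_E160 and Fgf5_E038 in position 1, an orientation had fewer than 3 combinations and was not compared. In the *Tbx3* locus, Tbx3_E206 was called, at 0.64 in position 1 and 1.07 in position 2 (adjusted p = 0.011), and the differences of the other 5 were between -0.18 and 0.16. Leaving out a replicate lowered the 26 calls to 0 (without BR1), 17 (without BR2) and 12 (without BR3), with 26, 26 and 30 at an unadjusted p under 0.05.

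Orientation gave similar shares. Of 94 tests of an enhancer in a position, the minus orientation was higher in 19 and lower in 22 (43.6%, against 40.3% over all libraries), with a median size of 0.26. The largest difference was that of Sox2_E181 in position 2, with 0.03 in plus and 1.54 in minus orientation (1.30, 1.77 and 1.45 in the replicates, limma adjusted p = 0.0065). Fgf5_E036 in position 2 had 0.85 in plus and 1.95 in minus orientation (adjusted p = 0.0079). Pou5f1_E084, which overlaps the *Pou5f1* gene, had 1.91 in plus and 0.83 in minus orientation in position 1 (adjusted p = 0.0065), and 0.34 and 1.16 in position 2 (adjusted p = 0.033). Its direction thus differed between the positions, the 1 such case among 8 enhancers called in both. Tbx3_E203 was called in both positions and was higher in plus orientation, at 1.95 against 1.41 in position 1 and 2.11 against 1.65 in position 2 (adjusted p = 0.0079 each). The 41 calls fell to 0 without BR1 and without BR2 (39 each at an unadjusted p under 0.05) and to 30 without BR3.

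The control fragments were not all alike. The 20 controls are 5 random sequences and 15 shuffled ones, the latter made from 5 DNase hypersensitive sites per the study's methods. Each EC value rests on the controls sampled with it. Of 39 controls in a position, 5 were above and 5 below the baseline of CC combinations (25.6%, against 23.2% over all libraries). The highest was E46-shuffled2 in position 2, at 0.99, 1.00 and 0.51 (mean 0.84, limma adjusted p = 0.022), followed by RandomE4 in position 2 (0.43 ± 0.20, SD, n = 3). E27-shuffled3 in position 2 was at 0.43 ± 0.40 and did not pass. The lowest were E95-shuffled3 in position 2, at -0.38, -0.96 and -0.78 (mean -0.70, adjusted p = 0.026), and E6-shuffled3 in position 1 (-0.63 ± 0.05, SD, n = 3). E6-shuffled1 in position 1 was at -0.60 ± 0.92 and did not pass. Beside an enhancer the same fragments kept their sign. Enhancers paired with E46-shuffled2 in position 2 were 0.51 above their own median, and those with E6-shuffled3 in position 1 were 0.68 below. Over the 39 controls in a position, Pearson's R between the 2 measures was 0.766, a description across fragments of the same replicates. Without E46-shuffled2, EC exceeded CC combinations by 1.54 ± 0.15. The 10 calls fell to 0 without BR1, 6 without BR2 and 0 without BR3 (12, 13 and 17 at an unadjusted p under 0.05).
The highest and the lowest control in position 2 are shown by bases 23 to 182, which follow an end that all controls share, in lower case with no base singled out.
E46-shuffled2: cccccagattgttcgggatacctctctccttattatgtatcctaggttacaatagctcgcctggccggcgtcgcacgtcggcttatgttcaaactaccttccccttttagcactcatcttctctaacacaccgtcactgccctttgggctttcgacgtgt
E95-shuffled3: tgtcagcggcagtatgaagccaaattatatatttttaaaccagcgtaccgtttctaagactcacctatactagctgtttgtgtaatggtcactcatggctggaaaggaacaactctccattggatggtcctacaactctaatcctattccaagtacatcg
Over their whole length without the shared ends, E46-shuffled2 has a GC content of 55.3% and E95-shuffled3 of 43.8%. Neither holds any of the motifs searched on both strands. Of the 20 controls, 5 hold the KLF motif GGGNGTG, 5 the TATA box TATAAA and 2 the SOX motif AACAANG, and 0 hold the octamer ATGCAAAT, the ESRRB motif TCAAGGTCA, the STAT motif TTCCNGGAA or the T-box motif AGGTGTGA.

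Pairs of enhancers gave slightly more than the sum of their parts in the median. For addition, the single-enhancer activities of a pair, each from EC combinations in the same position, were summed and the baseline was subtracted once. For multiplication, they were multiplied and divided by the baseline. Over 8754 EE combinations with an expectation, the median boost index observed was 3.32, 3.09 and 2.68, and that expected from addition was 2.82, 2.62 and 2.25. The median log2 of observed over additive activity was 0.29, 0.27 and 0.27 (0.27 ± 0.01, SD, n = 3). Against multiplication it was -0.45, -0.42 and -0.27 (-0.38 ± 0.09). The median pair thus lay between both expectations in each replicate. It was 0.52 ± 0.01 above the stronger of its 2 single enhancers, and 6237 pairs were above the stronger single enhancer in all replicates and 768 below it.

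By limma over all libraries, 3554 pairs (40.6%) were supra-additive and 771 (8.81%) sub-additive, against 23.5% and 13.5% over all libraries. The difference between these shares was not tested. Barcodes and plasmid DNA counts are shared by the replicates, so that error from them is not measured by these calls. The paper names *Tbx3* together with *Sox2*, *Lefty1* and *Fgf5* as promoters with relatively many supra-additive pairs. With the rule of the study's methods, 1 propagated SD, the numbers were 3058 and 549. The numbers rested on all 3 replicates. Without BR1 and without BR2 both fell to 0, with 3430 and 3539 pairs above and 775 and 812 below at an unadjusted p under 0.05, and without BR3 they were 2797 and 621. Against the multiplicative expectation, 458 pairs were above and 3888 below.

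The deviation differed with the strength of both enhancers. Strength classes and expectation use the same single-enhancer values, so the values are given as a description. Pairs of enhancers of 1 to 3 had the largest deviation, with a median of 0.57, 0.50 and 0.45, and 61.5% of them were supra-additive. Pairs of enhancers under 1 had 0.26 ± 0.01 (SD, n = 3) and pairs of 1 enhancer under 1 with 1 over 3 had 0.13 ± 0.03. The 320 pairs of enhancers over 3 had -0.58, -0.37 and -0.45, and 58.1% of them were sub-additive and 6.25% supra-additive. Against multiplication, the median fell from 0.08 ± 0.03 for pairs under 1 to -3.47 ± 0.44 for pairs over 3, all 320 of which were below.

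**Figure D3:**
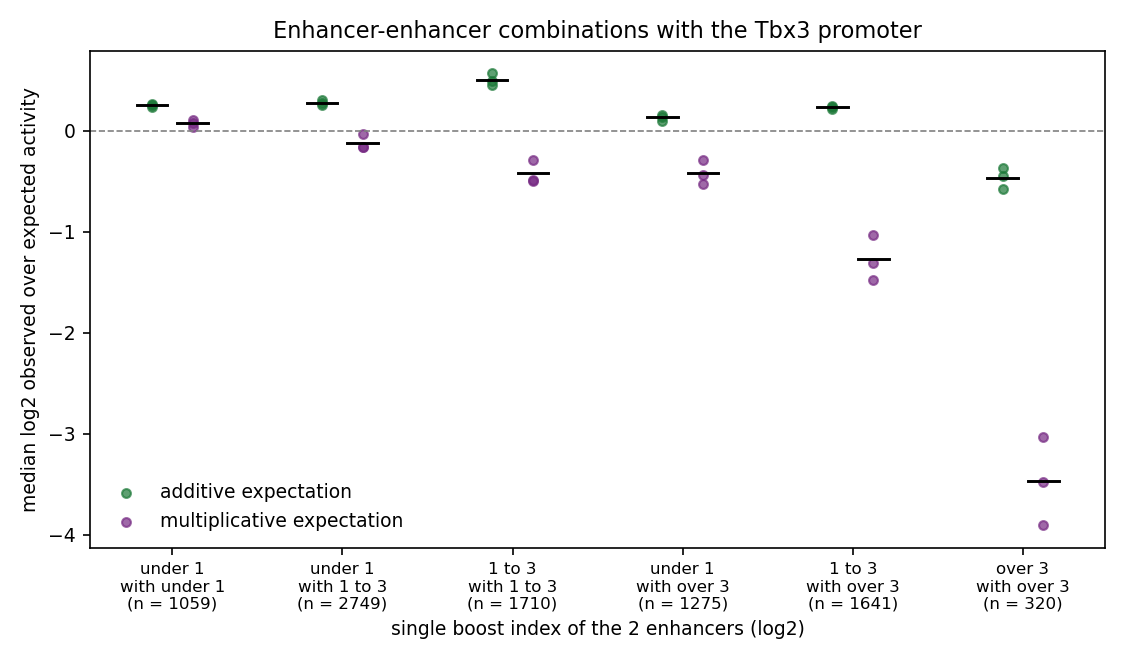
Median log2 of observed over expected activity for enhancer-enhancer combinations with the Tbx3 promoter, by the single boost index (log2) of both enhancers, against the additive (green) and the multiplicative (purple) expectation, with a point per replicate and the mean as a line. Against addition the medians lie above 0 in every class but that of 2 enhancers over 3, where the mean is -0.47.

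The highest EE combinations held Pou5f1_E081. Of the 100 with the highest boost index (5.19 or more), 68 held it, 17 held Klf2_E058, 13 Otx2_E111 and 12 Tbx3_E203, each of which occurred in 4.43% to 4.96% of all EE combinations. The highest was Klf2_E057 in position 1 with Pou5f1_E081 in position 2, both in minus orientation, at 5.85, 5.70 and 5.98 (mean 5.84, 57.4-fold), which was 0.89 ± 0.57 (SD, n = 3) above addition (limma adjusted p = 0.056). Lefty1_E094 (plus) with Pou5f1_E081 (minus) in position 2 had a mean of 5.68 and was 0.59 ± 0.08 above addition (adjusted p = 0.012). Tbx3_E203 in position 2 and plus orientation was in the other 3 of the 5 highest. With Pou5f1_E081 in minus orientation the pair had 5.95, 5.70 and 5.26, with Klf2_E058 in minus orientation 5.95, 5.57 and 5.28, and with Pou5f1_E081 in plus orientation 5.92, 5.61 and 5.21. They were 1.09 ± 0.11, 1.05 ± 0.17 and 1.03 ± 0.13 above addition (adjusted p = 0.0099 each). With *Lefty1* the same 3 combinations deviated by 1.00 ± 0.02, 0.94 ± 0.03 and 1.01 ± 0.01. With *Sox2* they deviated by 0.37 ± 0.08, 0.28 ± 0.04 and 0.32 ± 0.10, and differences between promoters were not tested. The pairs were picked by a high observed value. Their expectation pools both orientations of Tbx3_E203, of which plus was the stronger in position 2 (2.11 against 1.65).

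Of single pairs, written with the fragment of position 1 first, the largest supra-additive deviation was that of Pou5f1_E083 (minus) with Pou5f1_E078 (plus), whose boost index was 3.61, 4.39 and 4.13 against 1.45 expected (deviation 2.60 ± 0.46, SD, n = 3). Pou5f1_E079 (minus) with Otx2_E110 (plus), both weak alone, had 2.96, 2.94 and 3.25 against 0.48 (2.57 ± 0.31). Nanog_E065 with Fgf5_E036 (2.18 ± 0.34), Fgf5_E039 with Klf2_E061 (1.97 ± 0.17) and Nodal_E160 with Tbx3_E208 (1.89 ± 0.09), all in minus orientation, followed. Expectations pool both orientations, which differed in position 2 for Fgf5_E036 (0.85 in plus and 1.95 in minus) and Tbx3_E208 (2.21 and 1.87). Orientations of Nodal_E160 in position 1 could not be compared, for too few combinations. With the *Lefty1* promoter, the same 5 combinations deviated by 0.37 ± 0.65, 1.55 ± 0.16, 0.12 ± 0.66, 2.08 ± 0.08 and 2.24 ± 0.20. The spread over replicates was thus wide for the first and the third with *Lefty1*, and the other 3 were above 0 in each of its replicates. With the *Sox2* promoter, Fgf5_E039 with Klf2_E061 deviated by 2.07 ± 0.11, and the others have no value there.

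Otx2_E110, the weakest enhancer, was in 3 of the 5 pairs with the largest sub-additive deviations. Its 275 pairs were not sub-additive as a whole, with a median deviation of -0.0014, and 16.4% of them were supra-additive and 10.9% sub-additive, against 40.6% and 8.81% over all pairs of the library. Otx2_E110 with Pou5f1_E082, both minus, had -1.11, -1.43 and -0.42 against 1.58 expected (-2.56 ± 0.53, SD, n = 3). Pou5f1_E082 with Otx2_E110, both plus, had -1.33, -1.68 and -0.05 against 1.28 (-2.31 ± 0.70). Both pairs were thus below the CC baseline in each replicate, although Pou5f1_E082 alone had 1.35, 1.49 and 1.38. Otx2_E110 (minus) with Sox2_E181 (plus) had -1.92 ± 0.54, and here the expectation pools orientations that differed for Sox2_E181. Nodal_E160 with Nodal_E157, both plus, deviated by -2.09 ± 0.30 and Nanog_E074 with Fgf5_E037, both minus, by -1.91 ± 0.53. Orientation was not balanced in the single value of Nodal_E160 in position 1, where it could not be compared. With *Lefty1*, these 5 combinations deviated in the same order by -2.92 ± 1.18, -3.07 ± 0.83, -2.17 ± 0.18, -1.94 ± 0.40 and -0.70 ± 0.55. With *Sox2*, Otx2_E110 with Sox2_E181 deviated by -2.01 ± 0.72 and Nodal_E160 with Nodal_E157 by -0.70 ± 0.62. All 10 calls had an adjusted p of 0.0099 to 0.014 in limma with all replicates, and lost it without BR1 (0.073 to 0.083) and without BR2 (0.067 to 0.070). Each combination is 1 construct pool with an unknown number of barcodes, which all replicates share.

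Seen per enhancer, most took part in more than additive pairs. The median deviation over all pairs of an enhancer was called above 0 for 46 of 57 (80.7%, against 45.0% over all libraries) and below 0 for 0 (against 16.0%, with 0 below at an unadjusted p under 0.05 in limma and 44 below against multiplication). Of the enhancers under 1, 17 of 21 were called, of those between 1 and 3, 24 of 26, and of those over 3, 5 of 10. The lowest were Pou5f1_E084 (-0.17, -0.16 and 0.03), Sox2_E180 (-0.07 ± 0.07, SD, n = 3) and Nanog_E074 (-0.04 ± 0.05), with adjusted p from 0.102 to 0.293. Pou5f1_E084 was called below 0 without BR3, at -0.17, and in the fit over the *Tbx3* library alone, at -0.10 (adjusted p = 0.0075). The highest were Tbx3_E203, Klf2_E046 (0.54 ± 0.11) and Nodal_E156 (0.52 ± 0.06). For Klf2_E046, only its 134 pairs in position 2 have an expectation, and its single value there rests on 4 EC combinations. Against multiplication, Tbx3_E203, Klf2_E046 and Nodal_E156 were below 0, at -0.25, -0.48 and -0.18. With the *Lefty1* promoter, the medians of Tbx3_E203, Klf2_E046 and Nodal_E156 were 0.63, 0.11 and 0.52. With *Sox2*, Tbx3_E203 had 0.39 and Nodal_E156 0.42, and Klf2_E046 has no value there. The 3 lowest, in the order above, had -0.09, -0.07 and -0.08 with *Lefty1* and -0.07, -0.06 and -0.11 with *Sox2*. Differences from these promoters were not tested, so the excess over all libraries is not shown to be particular to *Tbx3*.

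**Figure D4:**
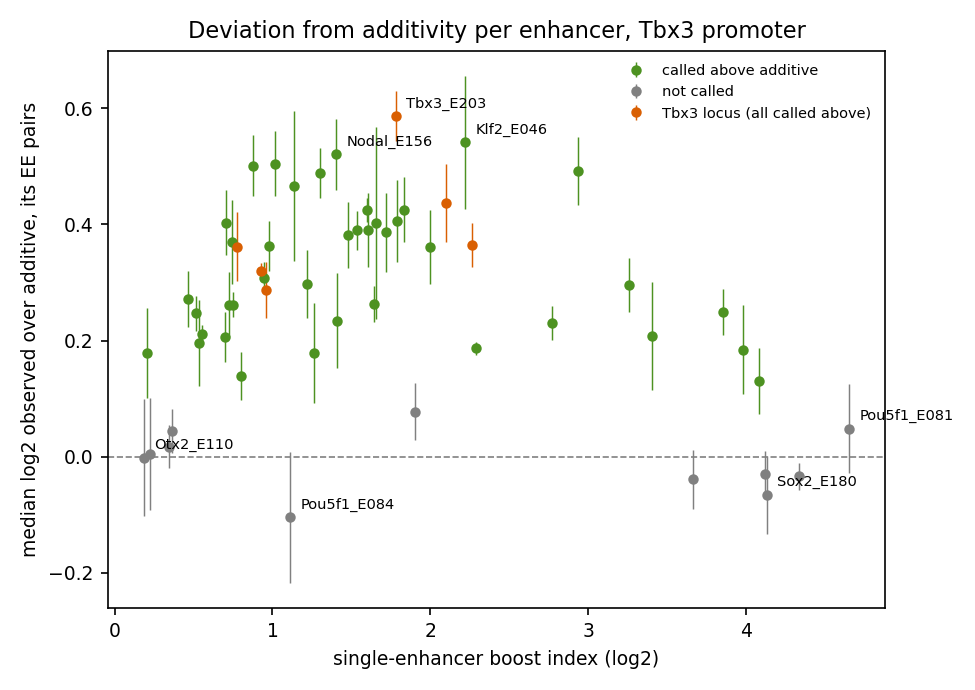
Median log2 of observed over additive activity over all pairs of an enhancer against its single boost index (log2) with the Tbx3 promoter, as the mean and SD (bars) of 3 replicates. Tbx3_E203 has the highest mean at 0.59, the 6 enhancers of the Tbx3 locus lie between 0.29 and 0.59, and the 11 not called lie at both ends of the range of single boost indices as well as in the middle.

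Tbx3_E203 had the highest median deviation of the 57 enhancers over all replicates, although Klf2_E046 was above it in BR3 (0.62) and without BR2 (0.61 against 0.58). For Tbx3_E203 it was 0.63 in BR1, 0.60 in BR2 and 0.54 in BR3 (0.59 ± 0.04, SD, n = 3, limma adjusted p = 0.00019), and 314 of its 428 pairs (73.4%) were supra-additive and 5 sub-additive, against 40.6% and 8.81% over all pairs of the library. As for all pairs, 0 of these calls were left without BR1 and without BR2. In position 2 the deviation was 0.44 ± 0.09 with partners under 1, 0.77 ± 0.08 with partners of 1 to 3 and 0.81 ± 0.04 with partners over 3. In position 1 it was 0.39 ± 0.06, 0.64 ± 0.07 and 0.39 ± 0.05 for the same partners. The deviation with partners over 3 was thus higher in position 2 than in position 1 in each replicate. Over the pairs of Pou5f1_E081 with partners over 3, in comparison, it was -0.57 ± 0.13 in position 1 and -0.65 ± 0.13 in position 2. By orientation, pairs with Tbx3_E203 in plus were at 0.65 ± 0.12 in position 1 and 0.89 ± 0.05 in position 2, and those in minus at 0.41 ± 0.03 and 0.49 ± 0.04. Since plus was also the stronger orientation alone, the expectation was formed again from the single value of the same orientation. The deviation was then 0.49 ± 0.12 (plus) and 0.57 ± 0.08 (minus) in position 1, and 0.71 ± 0.05 and 0.61 ± 0.04 in position 2, so that plus was no longer above minus in position 1. The median deviation of Tbx3_E203 was 0.63 ± 0.03 with the *Lefty1* and 0.39 ± 0.03 with the *Sox2* promoter, a difference that was not tested.

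Of 107 pairs of 2 enhancers of the *Tbx3* locus, 73 (68.2%) were supra-additive and 0 sub-additive with all replicates, against 40.6% and 8.81% over all pairs. Their median deviation was 0.52, 0.54 and 0.43. Pairs with 1 enhancer of the locus had a median of 0.38 ± 0.02 (SD, n = 3) and those with none 0.24 ± 0.01. Without Tbx3_E203, 38 of 68 pairs within the locus (55.9%) were supra-additive, and the median deviations were 0.38 ± 0.06 for these pairs and 0.33 ± 0.02 for pairs with 1 of its enhancers. All 6 enhancers were called above addition, as were 46 of all 57 (80.7%), from Tbx3_E207 (0.29 ± 0.05) over Tbx3_E206 (0.32 ± 0.02), Tbx3_E205 (0.36 ± 0.06), Tbx3_E209 (0.36 ± 0.04) and Tbx3_E208 (0.44 ± 0.07) to Tbx3_E203. With the *Lefty1* promoter, the medians were 0.20 for Tbx3_E207, 0.32 for Tbx3_E206, 0.35 for Tbx3_E205, 0.36 for Tbx3_E209 and 0.46 for Tbx3_E208. With *Sox2* they were 0.26, 0.20, 0.35, 0.26 and 0.38 in the same order. Differences between these promoters were not tested. Pairs within the other loci were supra-additive in 20.4% (*Sox2*) to 52.7% (*Otx2*), and 0 of the 35 pairs within *Fgf5* were sub-additive. Enhancers of the *Tbx3* locus and the other loci differ in strength, whose part in this was not tested. For all loci together, pairs of the same locus differed from pairs of different loci by -0.04, 0.0036 and -0.05 (-0.03 ± 0.03, exact two-sided sign-flip permutation test, p = 0.5, where 0.25 is the smallest that 3 replicates allow). Over the 4 arrangements of orientation, the medians ranged from 0.26 to 0.28.

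Single enhancers ranked alike with the *Lefty1* and the *Sox2* promoter, the libraries closest in their median EC boost index (1.63 ± 0.07 and 1.68 ± 0.08, SD, n = 3). These libraries hold 16036 and 11526 combinations of the same fragments, in the same line, transfected separately. Over 55 enhancers measured in all 3, Pearson's R of the mean boost index with *Tbx3* was 0.997 for *Lefty1* and 0.972 for *Sox2*, as a description across enhancers. With *Tbx3*, 46 of 55 were lower than with *Lefty1*, with a median difference of -0.12. The difference was called for 0 enhancers (0.0%) by limma over the 9 replicates of the 3 libraries, with 9 at an unadjusted p under 0.05, all lower with *Tbx3*, and 12 enhancers for which all 3 *Tbx3* values were below all *Lefty1* values. The largest was that of Lefty1_E093, at 2.83, 1.78 and 1.12 with *Tbx3* and 3.28, 2.06 and 2.33 with *Lefty1* (-0.65 ± 0.40, SE, adjusted p = 0.31), whose replicates overlapped. Lefty1_E085, at 4.38, 4.08 and 3.49 against 4.66, 4.49 and 4.58, differed by -0.59 ± 0.19 (SE, adjusted p = 0.075). The replicate numbers paired the samples of the libraries, and with the replicate block 10 enhancers were called, all lower with *Tbx3*, from Lefty1_E093 and Lefty1_E085 (adjusted p = 0.00083 and 0.0018) to Otx2_E111 (-0.40, adjusted p = 0.032). Without BR1, the number was 11, and without BR2 and without BR3 it was 0. At an unadjusted p under 0.05 there were 3 without BR2, all lower with *Tbx3*, and 2 without BR3, 1 lower and 1 higher. Without BR3, the replicate with the higher baseline, 31 of 55 enhancers were lower with *Tbx3*, the median difference was -0.02, and those of Lefty1_E093 and Lefty1_E085 were -0.37 and -0.35.

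Against *Sox2*, 11 enhancers were called (20.0%), 10 lower and 1 higher with *Tbx3*, with a median difference of -0.19. Of the 6 enhancers of the *Sox2* locus, 4 were among those lower with *Tbx3*. Against *Lefty1*, Sox2_E179 (-0.43), Sox2_E180 (-0.58), Sox2_E182 (-0.36) and Sox2_E183 (-0.36) were also lower with *Tbx3*, without overlap of replicates. Sox2_E178 (-0.06) and Sox2_E181 (-0.02) overlapped. None of these was called against *Lefty1* in the main fit, and Sox2_E179 and Sox2_E180 were called with the replicate block. Sox2_E179 was at 2.52, 2.45 and 1.90 with *Tbx3* and 3.25, 2.92 and 3.05 with *Sox2* (-0.78 ± 0.16, SE, limma adjusted p = 0.020). Klf2_E057 (-0.72 ± 0.20), Sox2_E182 (-0.66 ± 0.15), Fgf5_E040 (-0.65 ± 0.14) and Nanog_E088 (-0.63 ± 0.14) followed, with adjusted p from 0.020 to 0.040. Pou5f1_E082 was the 1 enhancer higher with *Tbx3*, at 1.35, 1.49 and 1.38 against 1.08, 0.70 and 0.11 (0.78 ± 0.20, SE, adjusted p = 0.033), and it was widely spread with *Sox2*. Of the *Tbx3* locus, Tbx3_E207 was lower with *Tbx3*, at 1.02, 1.01 and 0.84 against 1.51, 1.26 and 1.50 (-0.46 ± 0.13, SE, adjusted p = 0.040), and the other 5 were not called, with differences from -0.41 (Tbx3_E209, SE 0.16) to 0.09 (Tbx3_E206, SE 0.12). With the replicate block, 18 were called, 1 higher and 17 lower. Centred on the median enhancer of each library, 2 were called higher and 6 lower, so that the share of lower calls moved from 10 of 11 to 6 of 8. Without BR2 and without BR3 the number was 0. At an unadjusted p under 0.05 there were 1 higher and 15 lower without BR2, and 5 higher and 10 lower without BR3, against 1 and 19 with all replicates. Without BR3 the median difference was -0.08, and that of Sox2_E183, called with all replicates, moved from -0.54 to -0.32.

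**Figure D5:**
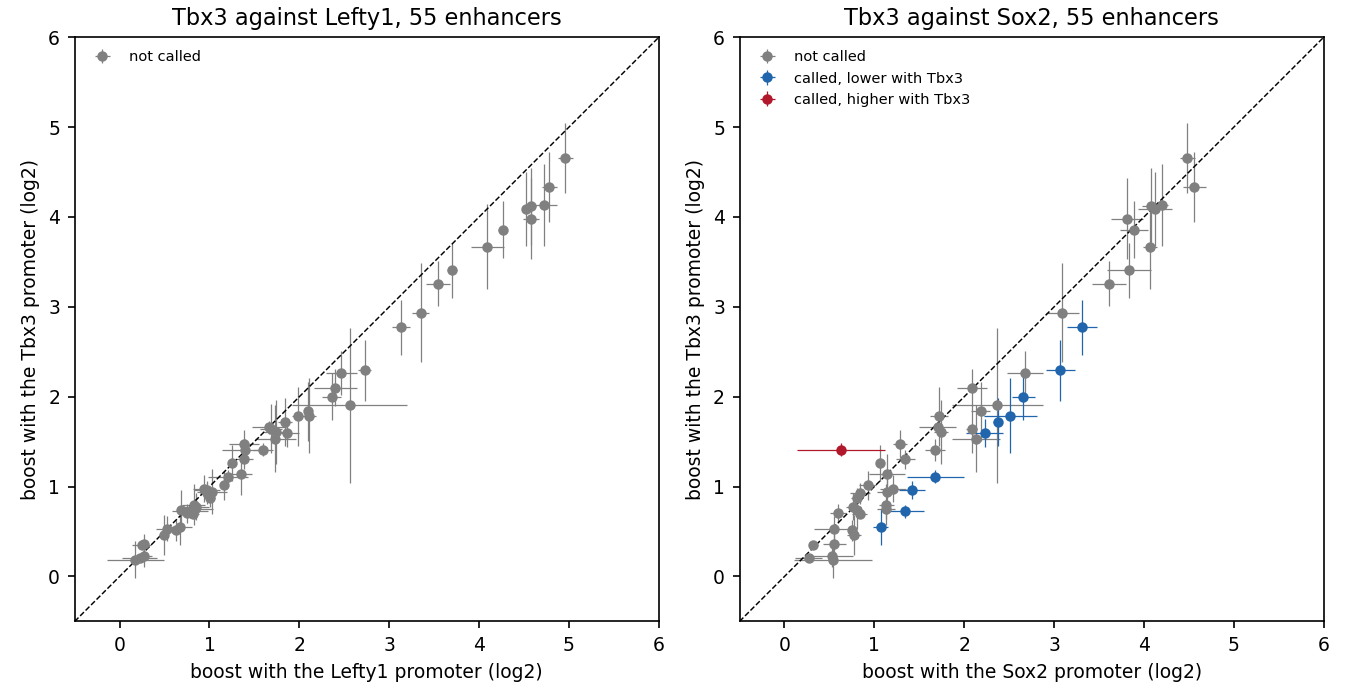
Boost index (log2) of 55 enhancers with the Tbx3 promoter against that with the Lefty1 (left) and the Sox2 promoter (right), as means with SDs over 3 replicates (bars) and the line of equality (dashed). With Lefty1, 46 points lie below the line and 0 were called, and with Sox2, 10 called points (blue) lie below the line and 1 (red) above it.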

How the data were processed

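The deposited table of the authors gives, per combination and biological replicate, an activity in units of a ratio. Barcodes were counted by the authors in cDNA and plasmid DNA (pDNA), divided by the sample total, and the cDNA:pDNA ratio was averaged over at least 5 barcodes with at least 8 pDNA counts each. Per the labels, Bowtie2 and mm10 were used. The table has 1 column per replicate, in which both cDNA runs were taken to be merged, so that n is 3 transfections. Columns with the authors' own means, expectations and boost indices were not used.

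Combinations at 0 in a replicate (3 CC, 5 EC and 1 EE) were left out. Boost indices, expectations and medians were calculated per replicate with Python 3.11.15, numpy 2.4.6, pandas 2.3.3 and scipy 1.17.1, and tested with limma 3.58.1 in R 4.3.3 (two-sided, Benjamini-Hochberg over all features of the 8 libraries, adjusted p under 0.05). Differences between libraries were fitted over the *Tbx3*, *Lefty1* and *Sox2* replicates, adjusted over both comparisons. A position, orientation or control needed at least 3 combinations. The calculations were tested on simulated data.

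The replicate numbers come from the labels. Deviations of same-numbered replicates from their library means correlated between libraries in 9 of 9 pairs (Pearson's R from 0.436 to 0.704 across enhancers), and each replicate correlated best with its own number, so the numbers were taken to pair the samples.

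Named in the text are the fragments of the *Tbx3* locus, the 5 highest and 5 lowest enhancers, those not called, the 3 largest called differences of position and orientation, the 5 highest and most deviating pairs in each direction, the 3 highest and lowest median deviations and controls, and the largest called differences between libraries. Members and lists were chosen with earlier results of these data known. Alternatives changed the replicates, the baseline, the minimum number of combinations, the libraries fitted, the expectation and the test. Some were chosen after seeing the data, namely those without E46-shuffled2, with the same orientation, with only the 3847 EC combinations shared by the 3 libraries, and with the replicate block and centring together, as was the expectation of Tbx3_E203 by orientation. Coordinates, primers and control sequences come from the study's lists of fragments, and gene overlaps from the RefSeq annotation of GRCm38 (mm10). Other fragment sequences were not analysed here.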

Additional observations from a re-analysis of the deposited data

Results flagged for a closer look

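These results were picked out because the boost of an enhancer differed between 2 promoters by the test of the difference itself (limma over the replicates of the libraries, adjusted p under 0.05). All are differences of the boost index, *Tbx3* minus *Sox2*. Of the *Sox2* locus, the differences were -0.78 for Sox2_E179, -0.66 for Sox2_E182, -0.61 for Sox2_E178 and -0.54 for Sox2_E183. *Tbx3* minus *Lefty1*, for comparison, was -0.43, -0.36, -0.06 and -0.36 for the same enhancers, none of them called. The others lower with *Tbx3* were Klf2_E057 (-0.72), Fgf5_E040 (-0.65), Nanog_E088 (-0.63), Pou5f1_E084 (-0.57), Nanog_E065 (-0.52) and Tbx3_E207 (-0.46). Pou5f1_E082 was higher with *Tbx3*, by 0.78. All 11 lost the call without BR2 and without BR3. With the replicate block all 11 were called again, centred on the median enhancer 7 of them, and over the EC combinations shared by the 3 libraries 6 of them, among which Pou5f1_E082 was not.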

How the results depend on the processing

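Of 102 alternatives to 17 counts and differences, 75 stayed within 1.5 times the count or within 1 SD. The direction of the calls was not part of this rule. Of 328 alternatives for 55 named fragments and pairs, 231 kept direction and side of the threshold and 3 reversed. Leaving out 1 replicate gave 0 to 17 enhancers differing between positions, 0 to 30 tests differing between orientations, 0 to 2797 supra-additive and 0 to 621 sub-additive pairs, 0 to 1 enhancers with sub-additive pairs and 0 to 6 controls off the baseline. Calls against *Lefty1* ranged from 0 to 11 and those against *Sox2* from 0 to 12, while enhancers above the controls stayed at 53 or 54. With 2 replicates left, the fit has fewer degrees of freedom. The multiplicative expectation gave 458 supra-additive and 3888 sub-additive pairs, 0 enhancers with supra-additive and 44 with sub-additive pairs, and it turned the median deviation of Tbx3_E203 to -0.25, of Klf2_E046 to -0.48 and of Nodal_E156 to -0.18.

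With the replicate block, which uses the pairing of the replicate numbers, 10 enhancers differed from *Lefty1* and 18 from *Sox2*, and with block and centring together 9 and 23 (9 higher and 14 lower with *Tbx3* than with *Sox2*). The mean log2 activity of CC combinations as baseline gave 2 calls against *Lefty1*. The fit over all 8 libraries, over 49 enhancers, gave 3 against *Sox2*, and the shared EC combinations 6. The cause of these changes was not tested. Barcode numbers are not known, so that no limit of detection can be given.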

Other observations

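Few combinations joined a fragment to itself or to an overlapping one. Fgf5_E040 with itself had a boost index of 1.36, 1.70 and 1.64 in BR1 to BR3, which was 0.92 ± 0.40 (SD, n = 3) below addition. Pou5f1_E077 with itself, at 2.61, 2.49 and 1.14, was 1.24 ± 0.62 above addition, and Pou5f1_E078 with itself, at 0.49, 0.61 and 1.85, deviated by 0.05 ± 0.95. Each of these is 1 combination. Over 42 combinations of 7 pairs of overlapping fragments, the median deviation was 0.02 ± 0.03, with 11 supra-additive and 7 sub-additive. It ranged from -0.55 ± 0.33 for Nanog_E073 with Nanog_E074 to 1.02 ± 0.21 for Pou5f1_E077 with Pou5f1_E078. Pou5f1_E082 with Pou5f1_E083 deviated by 0.49 ± 0.02, Otx2_E111 with Otx2_E112 by 0.27 ± 0.03, and Nodal_E159 with Nodal_E160, Otx2_E110 with Otx2_E111 and Sox2_E181 with Sox2_E182 by values from -0.07 to -0.0040.

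Lefty1_E093 had the widest spread of the single enhancers, at 2.83, 1.78 and 1.12 (SD 0.86, against a median SD of 0.22 over the 57 enhancers). With the *Lefty1* promoter it was also highest in BR1, at 3.28, against 2.06 and 2.33.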
